A study of Mus musculus with 4 samples.

Results

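The collagen genes are the 44 genes, of 32285 in the deposited table, whose symbol has the form of a collagen chain gene (Col, a type number, the letter a and a chain number). They were read in mouse alveolospheres, which are co-cultures of alveolar type 2 (AT2) epithelial cells picked by the dye LysoTracker with lung fibroblasts that carry PDGFRα. The 4 libraries form 2 groups of 2. The control group is labelled wildtype. In the knockdown group wildtype AT2 cells were combined with a knockdown of the co-activators YAP and TAZ specific to the PDGFRα cells. Both groups carried 3 µg/ml doxycycline from day 7 until they were collected on day 14, so the drug was also in the controls. The labels call the libraries biological replicates without naming separate animals or cultures as their source. The p-values thus speak of library-to-library spread alone, part of which may be technical. The sources used here do not give the silencing construct or the driver that restricts it to PDGFRα cells.

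Collagens are secreted or membrane-bound proteins whose chains wind into helical trimers. Fibrillar collagens build the tensile fibres of the lung interstitium, and network collagens, above all type IV, form sheets in basement membranes such as the shared membrane between alveolar epithelium and capillary. Fibril-associated collagens with interrupted helices (FACIT) sit on the surface of fibrils, and the remaining types form beaded filaments, anchoring fibrils, transmembrane proteins or proteoglycan cores. Lung fibroblasts are the main makers of the fibrillar types, and AT1 cells are known for the COL4A3 and COL4A4 chains. By these types the members were 11 fibrillar, 9 network, 9 FACIT and 15 other collagen genes.

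Several collagen chains are encoded in pairs that start back to back, and 2 of these starts are shown because the levels of the 2 chains of each pair are set side by side below. Col4a3 and Col4a4 lie head to head on chromosome 1 with starts 72 bases apart. Col4a1 and Col4a2 lie head to head on chromosome 8, where the annotated starts lie 21 bases apart and the genes overlap by 22 bases. The last sequence is the 250 bases before the second annotated start of Col18a1, the collagen gene that rose in fibroblasts. It was chosen because it holds the letters marked in it, which were absent around the first annotated start of Col18a1. Capitals mark the stretch from one start to the other, both included, in the first and second sequence, and GGAATG or its reverse complement CATTCC, the letters that TEAD factors, the DNA-binding partners of YAP and TAZ, are known to bind, in the last. Sequences are from RefSeq on GRCm38.p6 and read 5′ to 3′ on the strand given.
Col4a4 and Col4a3, chr1:82586821-82586949, minus strand: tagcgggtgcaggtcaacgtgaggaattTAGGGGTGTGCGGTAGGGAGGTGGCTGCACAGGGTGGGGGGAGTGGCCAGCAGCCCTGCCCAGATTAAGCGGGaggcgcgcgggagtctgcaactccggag
Col4a2 and Col4a1, chr8:11312777-11312854, plus strand: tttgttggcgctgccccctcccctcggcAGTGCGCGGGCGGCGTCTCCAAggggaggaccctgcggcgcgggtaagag
Col18a1, chr10:77113706-77113955, minus strand: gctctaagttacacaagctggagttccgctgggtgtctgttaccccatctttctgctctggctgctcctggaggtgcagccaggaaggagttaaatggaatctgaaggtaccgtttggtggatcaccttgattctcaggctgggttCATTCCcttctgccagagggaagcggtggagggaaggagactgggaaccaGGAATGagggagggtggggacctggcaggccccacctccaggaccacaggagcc
Guanine and cytosine made up 65.9% of the first, 73.1% of the second and 57.6% of the last. RefSeq start windows (250 bases before to 50 after a start) were matched for 35 of the 44 collagen genes. On either strand GGAATG was in 5 of their 38 windows (13.16%), those of Col3a1, Col6a2, Col18a1, Col20a1 and Col4a6, against 14.66% of all 32851 windows. The letters were therefore about as frequent at collagen starts as at all starts. Of the 9 collagen genes that passed the test in fibroblasts, Col12a1 and Col14a1 had no matched window and could not be searched. Among the rest of the 9 the letters were found for 1, Col18a1, and there only at its second start.

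The 4 libraries held 6508 to 15000 cells and 44284602 to 71523447 unique molecular identifiers (UMIs, each standing for a captured RNA molecule). The classes deposited by the authors were summed into a fibroblast compartment (5123 to 12041 cells a library) and an epithelial compartment (1274 to 2589 cells). Across all libraries 1073 barcode strings occurred more than once. Median depth in fibroblasts was 3764 and 4037 UMIs in control libraries and 4683 and 5836 UMIs in knockdown libraries. The targeted gene Yap1 fell in fibroblasts from 61.3 and 64.9 to 40.9 and 36.4 CPM (UMIs per gene scaled to the same total in every library), while Wwtr1, which encodes TAZ, read 239 and 231 against 194 and 172 CPM and did not pass (edgeR, adjusted p = 0.00864 and 0.115). In the epithelial compartment, which the knockdown does not target, Yap1 read 111 and 97.3 against 91.9 and 92.9 CPM (log2 -0.17, adjusted p = 0.697) and Wwtr1 313 and 271 against 244 and 209 CPM (log2 -0.37, adjusted p = 0.486), both without overlap. Summed markers of other cells moved in the fibroblast compartment too. The 3 basal markers read 15.0 and 10.6 CPM in the controls against 0.957 and 1.10 CPM in the knockdowns, the 4 mesothelial markers 44.5 and 35.8 against 13.0 and 11.1 CPM, and the 3 cycling markers 112 and 124 against 49.4 and 65.5 CPM. In all 3 lists no marker was at 0 throughout. The 9 fibroblast markers overlapped between the groups, at 1466 and 1737 against 1571 and 1460 CPM. The part of these markers in the collagen results was not tested, except where a value is given.

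In fibroblasts, 1 collagen gene rose and 8 fell with the knockdown. Col18a1, a basement membrane collagen whose end fragment is endostatin, rose by 1.10 on the log2 scale. Col8a1 (a short network collagen), Col11a1 (a fibrillar chain that starts thin fibrils), Col17a1 (an epithelial hemidesmosome collagen) and Col6a6 (a beaded filament chain) fell the most, and Col28a1, Col12a1, Col7a1 and Col14a1 fell less. The most abundant interstitial chains, Col1a1, Col1a2 and Col3a1, did not pass. Of the 44 members 39 had enough counts to be tested. The remaining 5, Col26a1, Col19a1, Col9a1, Col6a4 and Col22a1, had at most 11 UMIs in any library. Each gene was tested by edgeR (quasi-likelihood) on 4 sums with adjustment over all 17481 genes tested, and called means an adjusted p under 0.05; every adjusted p below is from it unless another tool is named. Among all genes tested 10.6% were called, 4.42% higher and 6.22% lower, so 9 calls among 39 collagen genes stand beside that background. The groups did not overlap for 21 of the 39 collagen genes and for 10311 of all 17481 genes. Lack of overlap was thus common and does not by itself set a gene apart. The median log2 fold change, knockdown minus control, was -0.09 over the collagen genes and 0.01 over all genes. Counts were summed over cells, so fewer cells of a class and less RNA per cell cannot be told apart in a compartment.

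**Figure D1:**
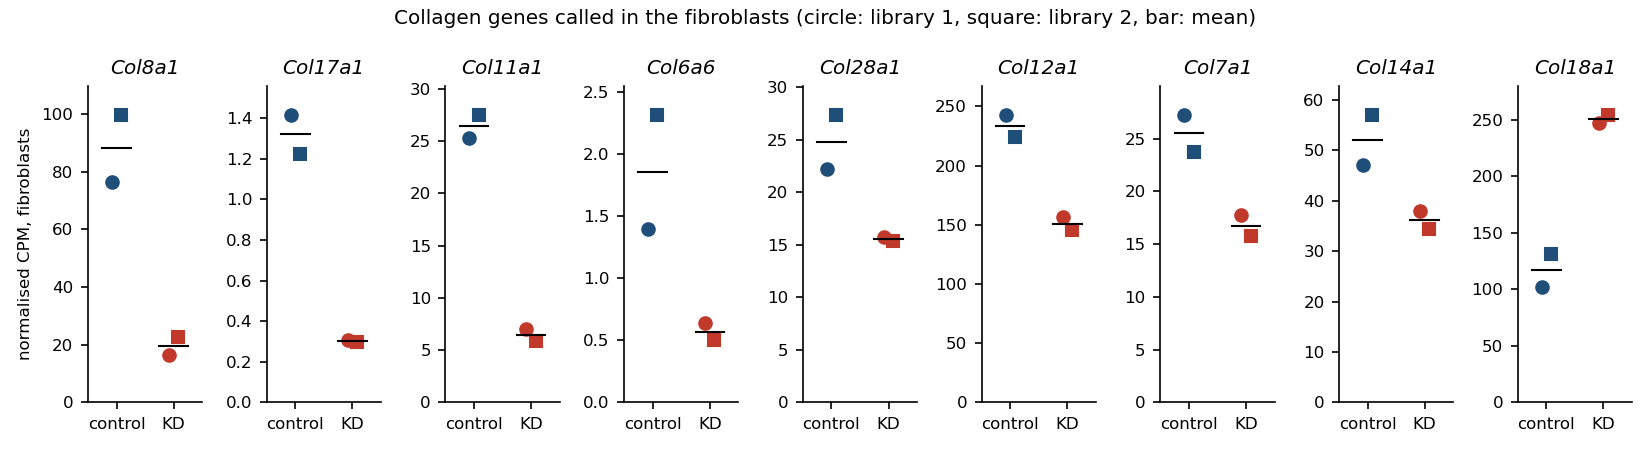
Level in each library (points, normalised CPM, axis from 0 for each gene) of the 9 collagen genes called in the fibroblast compartment, control and knockdown side by side, with 2 libraries and their mean (bar) each. Col18a1 is higher in both knockdown libraries than in both controls, and the remaining 8 genes are lower in both.

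Among the network-forming and fibrillar chains, Col8a1 (ENSMUSG00000068196, chromosome 16, 57624258 to 57754737) read 76.5 and 99.8 CPM in control libraries 1 and 2 and 16.6 and 22.8 CPM in knockdown libraries 1 and 2. Both knockdown libraries were far below both controls, and the log2 fold change was -2.16 ± 0.19 (SE; adjusted p = 0.00117). Col11a1 (ENSMUSG00000027966, chromosome 3, 114030540 to 114220718) read 25.3 and 27.5 CPM against 7.00 and 5.83 CPM. The groups did not overlap here either, at log2 -2.04 ± 0.13 (adjusted p = 0.000384). Both calls held under all 15 alternatives run, with log2 values from -2.41 to -1.68 for Col8a1 and from -2.18 to -1.44 for Col11a1. Their partner chains Col8a2 and Col11a2 did not follow at that size in the compartment. Col8a2, the partner chain of COL8A1, read 2.19 and 2.37 against 1.12 and 1.54 CPM (log2 -0.78 ± 0.23, adjusted p = 0.0651). Col11a2, the partner of COL11A1, was higher in both knockdown libraries, at 3.42 and 2.41 against 4.76 and 4.29 CPM, but did not pass (adjusted p = 0.0844). Col10a1, the other short-chain network collagen and a gene of hypertrophic cartilage, went from 4.18 and 8.07 to 2.80 and 3.29 CPM (log2 -1.01 ± 0.30, adjusted p = 0.0711). Of the alternatives run, 7 called Col8a2 and 9 called Col10a1.

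The abundant fibrillar chains differed in how far the libraries separated. Col1a1 and Col1a2 encode the chains of type I collagen, the bulk of interstitial fibres. Col1a1 read 1699 and 2143 CPM in control libraries and 1406 and 1367 CPM in knockdown libraries, and Col1a2 read 2120 and 2737 against 1732 and 1666 CPM. Both were lower in both knockdown libraries, with log2 values of -0.47 ± 0.18 and -0.52 ± 0.19, but the 2 controls lay far apart and neither passed (adjusted p = 0.137 and 0.123). Both were called without control library 1 and by DESeq2. Col3a1, the chain of type III collagen, read 2654 and 3687 CPM against 3020 and 2718 CPM, so its groups overlapped (log2 -0.14 ± 0.21, adjusted p = 0.689), and without control library 2 its sign turned (log2 0.11). The type V chains, which limit fibril width, took different directions. Col5a1 read 287 and 324 against 356 and 339 CPM (adjusted p = 0.407) and Col5a3 read 42.3 and 33.9 against 29.7 and 27.8 CPM (adjusted p = 0.0901), both without overlap. Col5a2, at 1051 and 1203 against 1106 and 1080 CPM, overlapped. None of the 3 passed. Of 11 fibrillar genes 0 rose and 1 fell.

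The more abundant type IV chains of the basement membrane were close between the groups. Col4a1 read 913 and 1063 CPM in control libraries and 1042 and 1105 CPM in knockdown libraries (log2 0.12 ± 0.16, adjusted p = 0.658). Its partner Col4a2 read 692 and 792 against 776 and 762 CPM (log2 0.05, adjusted p = 0.855). The groups overlapped for both genes. Col4a5 and Col4a6 also overlapped, at 60.4 and 63.1 against 61.5 and 58.5 CPM and at 9.10 and 11.0 against 9.12 and 8.71 CPM. Col4a3 rested on few molecules in fibroblasts, with 62 and 28 UMIs in the controls and 61 and 49 in the knockdowns. It read 1.11 and 0.511 against 1.55 and 1.45 CPM, higher in both knockdown libraries. It did not pass (log2 0.89 ± 0.35, adjusted p = 0.148). It was called without control library 1 and with the replicate block, alone or with an offset for genomic span. Of 9 network genes 0 rose and 1, Col8a1, fell.

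Of the FACIT genes 6 of 9 were tested, 0 rose and 2 fell. Col12a1, whose protein lies on type I fibrils, read 243 and 224 CPM in control libraries and 156 and 145 CPM in knockdown libraries. The groups did not overlap, at log2 -0.63 ± 0.13 (adjusted p = 0.0203). Col14a1, a related fibril surface collagen, read 47.0 and 57.0 against 38.0 and 34.3 CPM (log2 -0.52 ± 0.13, adjusted p = 0.0397). Both of these smaller falls depended on which classes were kept or how they were weighted, and on single libraries. Equal class weights here means that 8 fibroblast classes with at least 50 cells in every library got the same weight in every library. Smooth muscle, Wnt4+ and Tgfbi+ Fibroblasts are left out of it. With these weights Col12a1 was at log2 -0.47 (adjusted p = 0.0681) and Col14a1 at -0.14 (adjusted p = 0.561). In the same classes without reweighting the call of Col14a1 was also lost and that of Col12a1 was kept. Leaving out knockdown library 1 or 2 ended the call of Col12a1 (adjusted p = 0.0664 and 0.137) and of Col14a1 (0.0759 and 0.211), and leaving out control library 2 ended that of Col14a1 (0.0714). Of 15 alternatives, 12 kept the call of Col12a1 and 8 that of Col14a1. Col16a1, also of this family, was higher in both knockdown libraries, at 67.4 and 87.1 against 93.2 and 89.9 CPM, and did not pass (adjusted p = 0.286).

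The other collagens held the 1 rise and 4 falls among 13 tested of 15. Col18a1 (ENSMUSG00000001435, chromosome 10, 77052178 to 77166548) read 102 and 132 CPM in control libraries and 247 and 254 CPM in knockdown libraries. Both knockdown libraries were above both controls, at log2 1.10 ± 0.15 (adjusted p = 0.00542), and the call held under all 15 alternatives (log2 0.93 to 1.30). Col15a1, the other collagen of the same subfamily, was also higher in both knockdown libraries, at 163 and 198 against 264 and 258 CPM. Its log2 fold change of 0.54 ± 0.14 lay at the threshold (adjusted p = 0.0506), and 8 of 15 alternatives called it.

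Among the falls of this group, Col17a1 (chromosome 19, 47646344 to 47692094) rested on few molecules, with 79 and 67 UMIs in the controls and 12 and 10 in the knockdowns, or 1.42 and 1.22 against 0.306 and 0.296 CPM (log2 -2.12 ± 0.29, adjusted p = 0.00549). The basal epithelial markers fell beside it in the same sums, and their part was not tested. Col6a6 read 1.40 and 2.32 against 0.637 and 0.503 CPM (log2 -1.69 ± 0.33, adjusted p = 0.0193). With equal class weights Col6a6 was at -0.83 and did not pass (adjusted p = 0.194). Col28a1, a collagen with von Willebrand factor domains, read 22.2 and 27.4 against 15.7 and 15.3 CPM (log2 -0.68 ± 0.13, adjusted p = 0.0187). Col7a1, which forms the anchoring fibrils below epithelia, read 27.3 and 23.8 against 17.8 and 15.7 CPM (log2 -0.61 ± 0.12, adjusted p = 0.0228). Without knockdown library 2 neither Col28a1 (adjusted p = 0.0700) nor Col7a1 (adjusted p = 0.128) passed, and Col28a1 was also lost with an offset for genomic span (adjusted p = 0.0842). The main chains of type VI, the beaded filament collagen, did not pass. Col6a1 read 139 and 177 against 221 and 192 CPM (log2 0.39 ± 0.16, adjusted p = 0.152) without overlap, and Col6a2 and Col6a3 overlapped.

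**Figure D2:**
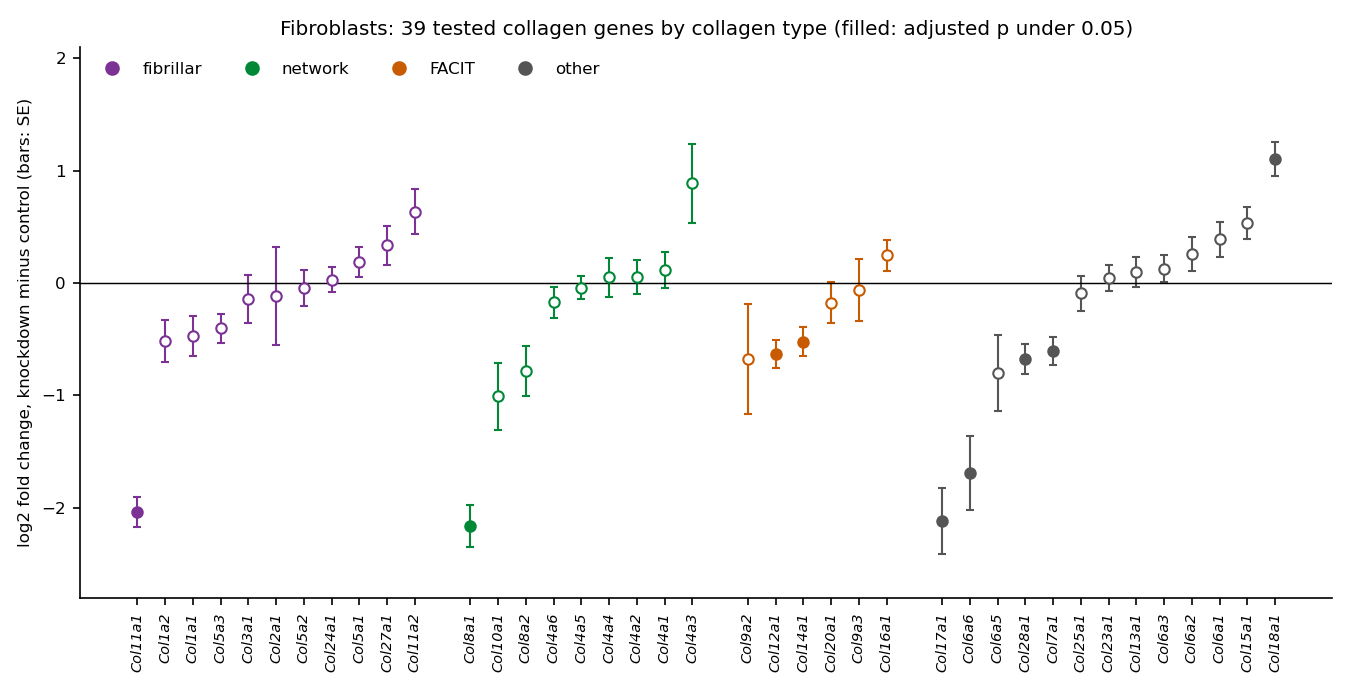
Log2 fold change of each of the 39 tested collagen genes in the fibroblast compartment, knockdown minus control, grouped by collagen type; bars are the SE of the edgeR fit and filled marks are called genes. Col8a1, Col11a1, Col17a1 and Col6a6 lie below -1.5 and Col18a1 is the called gene above 0.

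As a share of all fibroblast UMIs, the collagens together took 1.13% and 1.36% in the controls and 1.08% and 1.08% in the knockdowns. The fibrillar genes took 0.833% and 1.03% against 0.760% and 0.744%, and the FACIT genes 0.0393% and 0.0385% against 0.0296% and 0.0287%. Both types were lower in both knockdown libraries. The other collagens took 0.0754% and 0.0882% against 0.108% and 0.105%, higher in both knockdown libraries, and the network genes 0.182% and 0.204% against 0.184% and 0.198%, with overlap. The 95% Wilson interval of each share reached at most 0.00349 percentage points to either side, for counting error only. With 2 libraries a group the exact two-sided permutation test cannot go below 0.3333, which was its value for the fibrillar, FACIT and other types and for all collagens (adjusted p = 0.417, Benjamini-Hochberg over 5 sums); for the network type it was 1.

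Genes that act on collagen were read from a list of 52, all tested, of which 2 rose and 7 fell, beside 4.42% of all genes called higher and 6.22% called lower (median log2 -0.02). The groups did not overlap for 28 of the 52, beside 10311 of all 17481 genes. Of 22 genes that modify or fold the chains 2 rose and 1 fell. P3h3, of the prolyl 3-hydroxylase family, read 56.1 and 71.8 CPM against 97.1 and 103 CPM (log2 0.64 ± 0.14, adjusted p = 0.0260). Fkbp14, a peptidyl-prolyl isomerase of the endoplasmic reticulum, read 27.4 and 32.9 against 40.7 and 45.0 CPM (adjusted p = 0.0413). Creb3l1, a transcription factor known to drive type I collagen genes, read 52.8 and 48.9 against 38.2 and 37.3 CPM (adjusted p = 0.0382). The groups of these 3 genes did not overlap, but each call was lost without control library 1 and without either knockdown library, and those of Fkbp14 and Creb3l1 also with equal class weights or no filter on low counts.

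Of 13 maturation and cross-linking genes 0 rose and 2 fell. Lox, the lysyl oxidase that cross-links fibrils, read 153 and 182 CPM against 103 and 113 CPM (log2 -0.64 ± 0.13, adjusted p = 0.0235; lost without either knockdown library and with equal class weights). Adamts2, which trims the amino end of fibrillar procollagens, read 269 and 272 against 190 and 195 CPM (log2 -0.49, adjusted p = 0.0440). Its call was lost when any of the 4 libraries was left out. Equal class weights, no filter on low counts, the span offset with or without the replicate block, and classes of 50 or more cells ended it too. Of 15 alternatives 6 kept it. Of 8 receptors 0 rose and 2 fell, both integrin subunits that bind collagen. Itga2 read 20.0 and 18.9 against 10.9 and 11.1 CPM (log2 -0.82 ± 0.11, adjusted p = 0.00515). Itga11 read 3.55 and 4.11 against 1.12 and 1.45 CPM (adjusted p = 0.00460). Of 9 fibril partners 0 rose and 2 fell, both small leucine-rich proteoglycans that bind fibrils. Fmod read 3.10 and 4.02 against 0.637 and 0.651 CPM (log2 -2.46 ± 0.24, adjusted p = 0.00167). Lum read 28.6 and 38.2 against 20.5 and 18.0 CPM (adjusted p = 0.0193; lost without knockdown library 2 and with equal class weights). The calls of Itga2, Itga11 and Fmod held under all 15 alternatives.

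Across the deposited classes, the collagen genes had distinct places, which are described with no test because the classes were clustered on all genes. Values here are CPM of the class, mean ± SD of the 2 libraries of a group, and classes with fewer than 50 cells in either library of the group are left out. Col15a1 was highest in Myofib-like cells of the controls (577 ± 122 CPM), against 40.6 ± 1.91 CPM in the class named Fibroblasts. Col8a1 was also high in Myofib-like cells (170 ± 15.9 CPM) and in Inflammatory Fibroblasts-2 (151 ± 8.37 CPM). Col7a1 stood at 94.2 ± 10.8 CPM in Myofib-like cells and at 8.18 to 38.7 CPM in all other control classes except cluster 32, which is described below. Deposited cluster 4, a part of the Myofib-like class, read far below that class mean of Col7a1 in both control libraries, with its values given below. Among whole classes Col18a1 stood highest in Myo1f+ Fibroblasts (223 ± 74.9 CPM), where the 2 libraries lay far apart. Unknown Mesenchymal cells (195 ± 44.8 CPM) and the class named Fibroblasts (182 ± 33.4 CPM) followed, within their spread of each other. Deposited cluster 8, a part of the class named Fibroblasts, read higher than these class means in both control libraries, with its values given below. The class named Unknown Mesenchymal carried Col4a6 at 125 ± 22.9 CPM, against at most 18.4 CPM in the other control classes. Col3a1 was highest in EMT-like cells, with 4735 ± 1102 CPM in the controls and 5031 ± 22.7 CPM in the knockdowns.

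Col4a3 and Col4a4, chosen here after their values were seen, marked the epithelium. In cluster 14, which carries AT1 markers, Col4a3 read 336 ± 5.34 CPM in the controls and 337 ± 22.5 CPM in the knockdowns. Col4a4 read 352 ± 12.2 and 359 ± 20.6 CPM there. In cluster 9, the AT2 cells, the levels were 52.3 ± 2.93 and 44.6 ± 2.50 CPM for Col4a3 and 58.4 ± 2.65 and 51.9 ± 5.14 CPM for Col4a4. In the fibroblast compartment they read 0.511 to 1.55 CPM and 2.46 to 2.70 CPM in the 4 libraries. Col4a5, which joins these chains in a trimer, had no such gap, at 200 ± 22.2 CPM in cluster 14 and 213 ± 41.4 CPM in Unknown Mesenchymal cells of the controls.

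**Figure D3:**
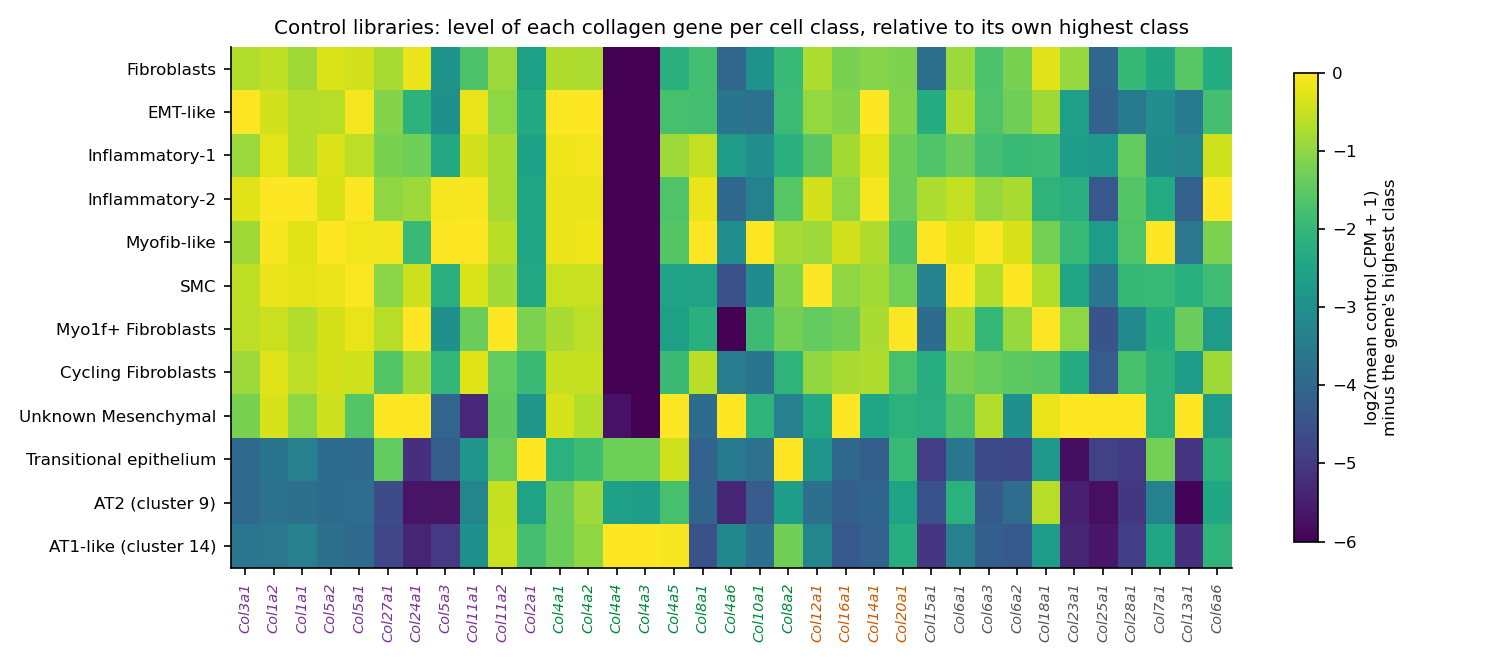
Level of collagen genes (columns, by type) in the cell classes of the control libraries (rows), as log2(mean CPM + 1) minus that of the gene's own highest class; the colour scale ends at -6. Col4a3 and Col4a4 are high only in the epithelial classes, and Col7a1, Col8a1 and Col15a1 are highest in Myofib-like cells.

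Chains that share a trimer differed in how alike their profiles were across classes and libraries, control and knockdown together. Over 38 sums of a fibroblast class in a library, the Pearson correlation of log2(CPM + 1) was computed for all 378 pairs of the 28 collagen genes that reached 10 CPM. The highest was that of Col4a1 with Col4a2 (0.949), followed by Col6a1 with Col6a2 (0.896) and Col1a1 with Col1a2 (0.856). Other chains of 1 trimer lay lower, among them Col5a1 with Col5a2 (0.289), Col6a1 with Col6a3 (0.346) and Col4a3 with Col4a5 (-0.18). Col11a1 and Col8a1, which do not share a trimer, had the fifth highest value (0.794). The lowest was Col4a2 with Col13a1 (-0.82). Col4a3 and Col4a4, both near 0 CPM in fibroblasts, stood at -0.11 over these sums and at 0.959 with the epithelial classes added. The sums share libraries and differ in depth, so these correlations are given as a description. They also pool control and knockdown libraries. Genes that both fell with the knockdown, such as Col11a1 and Col8a1, can correlate through that shared fall, whose part was not tested.

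**Figure D4:**
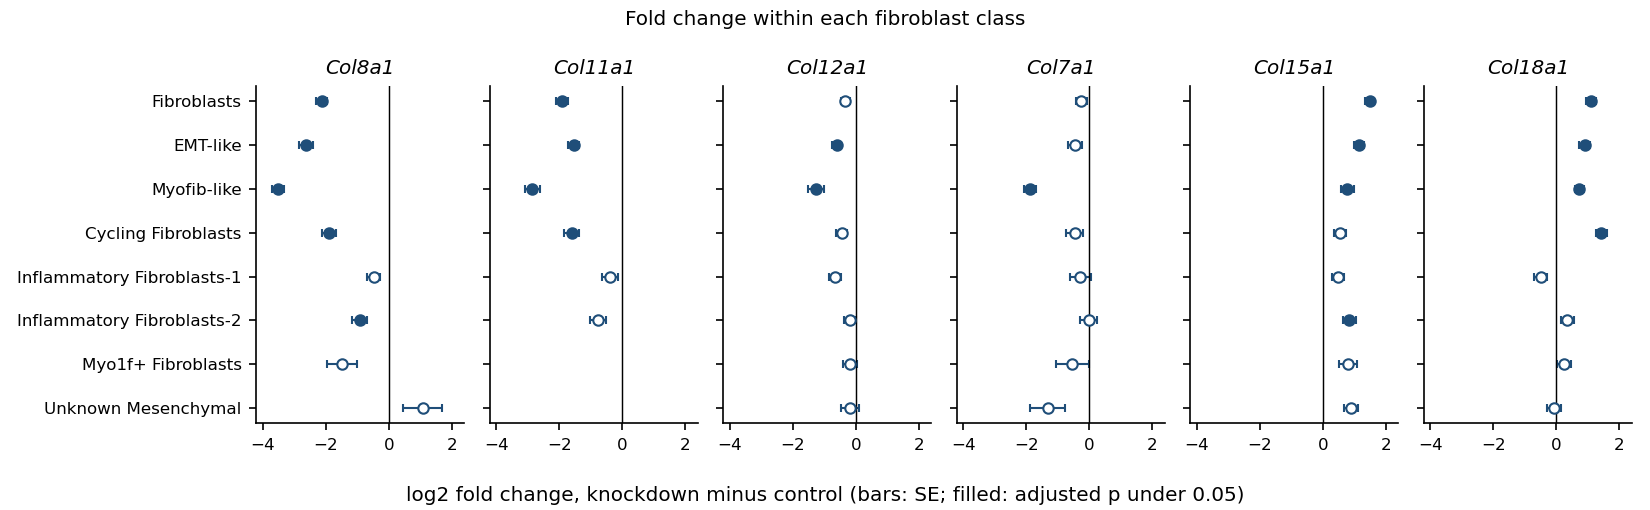
Log2 fold change, knockdown minus control, of 6 collagen genes in each of 8 fibroblast classes with at least 50 cells in every library; bars are the SE of the edgeR fit within the class. Col15a1 is above 0 in all 8 classes, while Col8a1 reaches -3.51 in Myofib-like cells and 1.07 in Unknown Mesenchymal cells.

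Several fibroblast classes held collagen genes that passed the test in the class alone. The Myofib-like class had 2 collagen genes higher and 7 lower among 32 tested, beside 7.33% of all genes called. The class named Fibroblasts had 2 higher and 7 lower among 34 (8.23% of all genes), and EMT-like cells 2 higher and 5 lower among 36 (6.24%). Cycling Fibroblasts had 1 higher and 3 lower among 30 (2.31%), Inflammatory Fibroblasts-2 had 1 higher and 1 lower among 33 (2.56%), Unknown Mesenchymal cells had 2 lower among 24 (1.31%), and Myo1f+ Fibroblasts had 1 lower among 23 (2.48%). Inflammatory Fibroblasts-1 had 0 calls among 30 (2.53%) by edgeR, with 11 at an unadjusted p under 0.05, 0 calls by limma voom and 4 without the filter on low counts. The Myofib-like calls need the filter on low counts: without it 0 of the 9 held, with Col8a1 at the same log2 of -3.53 and an adjusted p of 0.114. The 4 calls in Cycling Fibroblasts were also lost without that filter and without knockdown library 1 or 2. With a library left out, the class named Fibroblasts kept 7 to 9 of its 9 calls, the Myofib-like class 7 to 9 of 9 and EMT-like cells 4 to 7 of 7. Both calls in Inflammatory Fibroblasts-2 were lost without knockdown library 1, both in Unknown Mesenchymal cells without any of 3 libraries (control 2, knockdown 1 and knockdown 2), and that in Myo1f+ Fibroblasts without control library 1 or knockdown library 1.

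4 of these classes hold more than 1 deposited cluster, and the share of cells from each cluster differed between the groups. In the class named Fibroblasts, cluster 0 had 2412 and 2035 cells in control libraries but 66 and 23 in knockdown libraries, and cluster 5 had 7 and 76 against 1393 and 1149. Clusters 8 (563 and 680 against 631 and 347 cells) and 11 (593 and 936 against 134 and 86) had cells of all libraries. In the Myofib-like class, cluster 4 had 858 and 918 against 519 and 439 cells and cluster 15 had 703 and 594 against 99 and 39. The EMT-like class was mainly cluster 1 in all libraries, and Inflammatory Fibroblasts-2 mainly cluster 10. A difference in such a class can therefore be one between clusters. The 6 clusters with at least 50 cells in every library were tested alone, a choice made after seeing the class values. Cluster 8 had 2 collagen genes higher and 1 lower among 27 (3.77% of all genes called), cluster 11 had 2 higher and 0 lower among 27 (0.519%), cluster 4 had 1 higher and 4 lower among 31 (3.26%), cluster 1 had 2 higher and 5 lower among 32 (4.88%), cluster 25 had 2 higher and 0 lower among 21 (1.18%) and cluster 10 had 1 higher and 0 lower among 30 (2.85%).

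Col8a1 fell in 5 of 8 fibroblast classes. In Myofib-like cells it read 159 and 181 CPM in control libraries and 11.4 and 17.4 CPM in knockdown libraries (log2 -3.51 ± 0.20, adjusted p = 9.88e-09). In EMT-like cells it read 41.0 and 57.0 against 6.10 and 9.71 CPM (log2 -2.63, adjusted p = 4.61e-06), and in the class named Fibroblasts 40.9 and 55.4 against 10.5 and 10.9 CPM (log2 -2.13, adjusted p = 4.55e-05). No library of the knockdown reached a control library in these 3 classes. The fall in Inflammatory Fibroblasts-2, from 157 and 145 to 48.0 and 114 CPM (log2 -0.92, adjusted p = 0.0356), was lost without knockdown library 1 (adjusted p = 0.545). In Inflammatory Fibroblasts-1 Col8a1 read 87.2 and 146 against 76.7 and 84.4 CPM and did not pass (adjusted p = 0.293). In classes seen mainly in the knockdown it read 44.2 ± 22.3 CPM (Tgfbi+ Fibroblasts) and 2.09 ± 0.65 CPM (Wnt4+ Fibroblasts). In single clusters Col8a1 fell in cluster 8 (25.6 and 32.9 against 8.31 and 5.97 CPM, adjusted p = 0.000160), cluster 4 (log2 -2.96, adjusted p = 2.28e-05) and cluster 1 (log2 -2.53, adjusted p = 6.53e-06). In cluster 11 it read 151 and 165 against 133 and 147 CPM and did not pass (adjusted p = 0.786). Whether the effect differed between classes or clusters was not tested.

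Col11a1 fell in 4 of the 6 classes in which it could be tested, from 35.8 and 41.3 to 4.10 and 6.13 CPM in Myofib-like cells (log2 -2.85, adjusted p = 1.63e-06) and from 11.6 and 11.3 to 2.71 and 3.21 CPM in the class named Fibroblasts (log2 -1.90, adjusted p = 0.000191). Its log2 values were negative in all 6, and it fell alone in cluster 4 (log2 -2.17, adjusted p = 0.000863) and cluster 1 (log2 -1.40, adjusted p = 0.000234). Col7a1 fell in 1 of 8 classes. In Myofib-like cells it read 102 and 86.6 against 29.7 and 19.4 CPM (log2 -1.87 ± 0.19, adjusted p = 1.09e-05). In cluster 4 alone, however, it read 25.4 and 19.9 against 17.7 and 13.8 CPM and did not pass (log2 -0.52, adjusted p = 0.262). Col12a1 fell in Myofib-like cells, from 266 and 184 to 117 and 61.0 CPM (log2 -1.26, adjusted p = 0.00377), and in EMT-like cells, from 218 and 204 to 132 and 137 CPM (adjusted p = 0.0250; lost without control library 1 or either knockdown library). Col28a1 fell in the class named Fibroblasts from 24.0 and 24.8 to 7.74 and 7.93 CPM (log2 -1.59, adjusted p = 0.000119), but it passed neither in cluster 8 (log2 -1.05, adjusted p = 0.185) nor in cluster 11 (log2 -0.86, adjusted p = 0.220) alone. Col12a1 fell in clusters 4 (log2 -1.05, adjusted p = 0.00219) and 1 (log2 -0.59, adjusted p = 0.0333).

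Some members that did not pass in the compartment did so in classes. Col15a1 rose in 4 classes. In the class named Fibroblasts it went from 42.0 and 39.3 to 120 and 99.1 CPM (log2 1.48 ± 0.15, adjusted p = 0.000126), and in EMT-like cells from 116 and 121 to 249 and 261 CPM (log2 1.14, adjusted p = 0.000400). In Myofib-like cells, where it was highest, it went from 490 and 663 to 908 and 993 CPM (log2 0.78, adjusted p = 0.0212; lost without control library 1 or knockdown library 2). In Inflammatory Fibroblasts-2 it went from 342 and 350 to 708 and 507 CPM (adjusted p = 0.0244; lost without knockdown library 1). Col18a1 rose in 4 classes, among them the class named Fibroblasts, from 159 and 206 to 365 and 389 CPM (log2 1.09, adjusted p = 0.00206), and EMT-like cells, from 103 and 142 to 202 and 244 CPM (log2 0.90, adjusted p = 0.00619). In single clusters Col18a1 rose in 5 of 6, by log2 0.76 in cluster 8 (497 and 671 against 888 and 1093 CPM, adjusted p = 0.0205) and 1.17 in cluster 11 (adjusted p = 0.00548). Col15a1 rose in 5 of 6, by log2 1.25 in cluster 8 (adjusted p = 5.43e-05) and 1.13 in cluster 11 (adjusted p = 0.0389), and did not pass in cluster 4 (log2 0.50, adjusted p = 0.183). In Inflammatory Fibroblasts-1 Col18a1 read 55.9 and 62.2 against 46.0 and 35.2 CPM, lower in both knockdown libraries, and did not pass (log2 -0.49, adjusted p = 0.231).

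Col4a6, which did not pass in the compartment, fell in 3 classes. In Unknown Mesenchymal cells it read 109 and 141 CPM against 52.6 and 52.4 CPM (log2 -1.18, adjusted p = 0.0129), from 85 and 106 control cells. In the class named Fibroblasts it read 6.30 and 7.15 against 3.43 and 1.87 CPM (adjusted p = 0.0176; lost without the filter), and in EMT-like cells 10.4 and 7.38 against 4.45 and 3.36 CPM (adjusted p = 0.0248; lost without control library 1 or knockdown library 2). Col4a5 fell in the class named Fibroblasts, from 45.2 and 46.1 to 32.2 and 28.0 CPM (log2 -0.55, adjusted p = 0.0328; lost without knockdown library 2 or the filter). Neither gene passed in any of the 6 clusters tested alone, where Col4a6 had enough counts in 4; Col4a5 was at log2 0.03 in cluster 8 and -0.0841 in cluster 11. Col10a1 fell in Myofib-like cells, from 22.0 and 41.1 to 10.4 and 4.09 CPM (log2 -2.04, adjusted p = 0.00164), while in cluster 4 alone it read 2.69 and 2.65 against 3.63 and 1.87 CPM and had too few counts to be tested. Col8a2 fell in the same class, but on 2 and 3 UMIs in the knockdown libraries against 38 and 31 in the controls (log2 -2.53, adjusted p = 0.00656). That call was lost without control library 1 or the filter. Col8a2 also fell in EMT-like cells (log2 -2.21, adjusted p = 0.0322), which was lost without control library 1 or either knockdown library. Col10a1 also fell in the class named Fibroblasts (log2 -2.32, adjusted p = 0.0152), which was lost without the filter.

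In the epithelial compartment, which the knockdown does not target, 0 collagen genes rose and 7 fell of 35 tested. Among all 13952 genes tested 1.44% were called, 0.681% higher and 0.760% lower. The 7 were Col17a1, Col25a1, Col11a1, Col8a1, Col1a2, Col7a1 and Col12a1. The groups did not overlap for 24 of the 35 collagen genes and for 6166 of all 13952 genes. Collagen RNA in an epithelial droplet can come from free fibroblast RNA, so each level was set beside that of the 9 fibroblast markers. Their summed level in epithelial droplets was 11.1% and 7.75% of the fibroblast level in the controls and 7.72% and 5.69% in the knockdowns, and single markers lay between 3.42% and 26.5%, the highest being Tcf21. Col8a1 was at 12.4%, 9.05%, 14.0% and 7.52% of its fibroblast level, and Col3a1 at 12.4%, 8.56%, 8.53% and 5.92%. These shares lie within the range of the single markers.

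Col4a1 (40.4% to 48.9%), Col4a2 (47.2% to 58.0%), Col18a1 (35.5% to 69.7%), Col7a1 (72.2% to 105%) and Col4a5 (184% to 221%) lay above that range in all 4 libraries. So did Col4a6 (70.4% to 108%), Col8a2 (197% to 278%), Col20a1 (40.6% to 53.3%) and Col11a2 (32.4% to 93.6%). Col4a3, Col4a4 and, on few UMIs, Col2a1 and Col22a1 were above their fibroblast level in all 4. After the fibroblast profile was subtracted at the level of its markers, 4 falls were no longer called. Col8a1 went from log2 -2.16 to -0.57 (adjusted p = 0.736) and Col12a1 from -0.81 to -0.59 (adjusted p = 0.376). Col7a1 went from -0.90 to -0.93 (adjusted p = 0.0662), so it lost the call but not the size. Col1a2 went from -1.06 to -1.58 (adjusted p = 0.644). It was left at 23.5 and 0 CPM in the controls against 6.76 and 0 CPM in the knockdowns, so that size cannot be read. Col11a1 had too few counts to be tested, and Col17a1 and Col25a1 were still called. Leaving out control library 1 ended the calls of Col7a1, Col1a2 and Col12a1, leaving out knockdown library 2 those of Col1a2 and Col12a1, and neither DESeq2 nor limma voom called Col7a1. Col4a3 read 145 and 139 CPM in control libraries and 130 and 128 CPM in knockdown libraries, and Col4a4 153 and 152 against 141 and 134 CPM; neither passed (adjusted p = 0.761 and 0.749). Col18a1 read 71.4 and 75.0 against 133 and 89.6 CPM, higher in both knockdown libraries, and did not pass (log2 0.61 ± 0.19, adjusted p = 0.200).

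**Figure D5:**
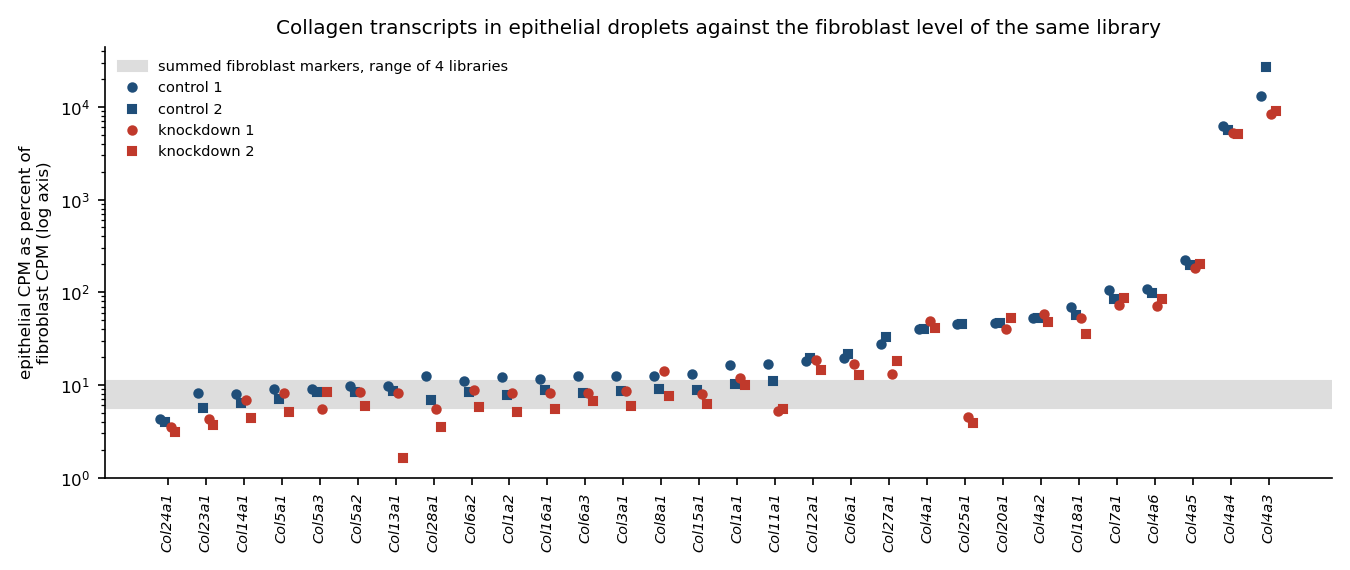
Level of collagen genes in epithelial droplets as a percent of the level in fibroblasts of the same library (log axis; each point is a library), with the grey band marking the summed fibroblast markers, 5.69% to 11.1%. Col1a1, Col3a1 and Col8a1 lie at or near the band, while Col4a1, Col4a2, Col4a5 and Col7a1 lie above it in all 4 libraries.

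Col17a1 and Col25a1, both transmembrane collagens, were low in epithelial cells and almost lost in the knockdown. Col17a1 had 31 and 29 UMIs in the controls and 0 and 2 in the knockdowns. Per UMI of the compartment the control level was 41.2 times that of the knockdown, with a counting interval of 10.9 to 348 that leaves out the spread between libraries (log2 -5.11 ± 0.71, adjusted p = 0.00139). It was called without knockdown library 1 at log2 -3.79 and without knockdown library 2 at -8.22. Col25a1 had 38 and 39 UMIs against 6 and 3, or 3.50 and 4.57 against 0.370 and 0.319 CPM (log2 -3.48 ± 0.45, adjusted p = 0.000925). Of these control UMIs, 31 of 60 for Col17a1 and 34 of 77 for Col25a1 came from cluster 32, a deposited AT2 cluster of 82, 25, 21 and 42 cells in control libraries 1 and 2 and knockdown libraries 1 and 2 that also carried airway secretory markers.

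In cluster 32 Col17a1 had 17 and 14 UMIs in the controls and 0 in both knockdown libraries, at least 9.37-fold lower (floor of 3 counts over the group). Col25a1 had 19 and 15 UMIs against 0, at least 10.3-fold lower. Col7a1 read 59.1 and 80.9 against 0 and 2.06 CPM, and Col4a3 76.0 and 80.9 against 0 and 2.06 CPM, in the same cells. The 3 basal markers moved with them, at 194 and 290 CPM in control libraries and 0 and 10.3 CPM in knockdown libraries. Over the whole epithelial compartment the basal markers read 27.1 and 18.9 against 0.353 and 1.18 CPM and the 5 airway secretory markers 1374 and 300.3 against 9.72 and 583 CPM. Without cluster 32 the falls of Col17a1 (log2 -4.09, adjusted p = 0.0258) and Col25a1 (log2 -2.66, adjusted p = 0.0213) were still called and those of Col7a1 (log2 -0.76, adjusted p = 0.117) and Col12a1 (log2 -0.77, adjusted p = 0.0646) were not, at little changed size.

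Within epithelial classes the deposited AT2 class had 14 collagen genes lower and 0 higher among 36 (6.52% of all genes called), but it holds clusters 19 and 23, which carry fibroblast markers too, and its count was 6 without control library 2 and 25 without knockdown library 1. Cycling AT2 cells had 5 lower among 20 (1.34%), of which 2 remained without control library 1, 2 without control library 2 and 3 without knockdown library 2. In cluster 9 alone 2 of 21 fell (0.922%), Col1a2 at log2 -0.92 and Col8a1 at -3.16, and in cluster 14 1 of 22 fell (0.510%), Col1a2 at log2 -0.99. Transitional epithelial cells had 0 calls among 28 (0.304%) by edgeR, with 9 at an unadjusted p under 0.05, 1 call by limma voom, 4 without the filter on low counts, 9 with the replicate block and 1 to 5 with a library left out. Col1a2 is among the genes whose level in epithelial droplets lay within the range of the single fibroblast markers.

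The effects of the knockdown in the compartments were compared directly as an interaction, for 40 of the 44 members. The difference was called for 2, Col25a1 and Col27a1, beside 3.55% of all genes. For Col25a1, fibroblasts held 7.63 and 9.97 CPM in control libraries and 8.12 and 8.38 CPM in knockdown libraries, with overlap, while epithelial cells fell as above; the difference was log2 3.38 ± 0.37 (adjusted p = 0.000964). Without cluster 32 it was 2.56 (adjusted p = 0.00479). Col27a1, a fibrillar chain of cartilage and other tissues, read 114 and 88.5 against 146 and 110 CPM in fibroblasts and 32 and 29.4 against 19.5 and 19.5 CPM in epithelial cells. Neither effect passed alone (adjusted p = 0.252 and 0.0658), and the difference was log2 0.97 ± 0.16 (adjusted p = 0.00811; 1.38 and 0.0863 after subtraction of free fibroblast RNA). Col8a1, at log2 -2.16 in both compartments, and Col18a1 were not called in this test.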

How the data were processed

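Single-cell RNA was read with a 10x Genomics Multiome kit in 4 alveolosphere libraries; the chromatin data were not analysed here. The deposited matrix holds whole-number UMI counts per gene and cell, not normalised, per the file headers, and its sums equalled the deposited UMIs of 45936 of 45936 cells. Among the deposited cell values are a percent of mitochondrial UMIs (at most 35.0%) and a doublet enrichment ratio from the chromatin data, per the file headers; both only describe the cells. Doublets were not called anew: clusters 19 and 23, which carry markers of both lineages, were left out of the compartments. The genome builds are GRCm38 and mm10, per the submitters' processing notes. Aligner, counter, strand setting and cell filters were not given in the sources used here. Of 60 deposited cell columns 53 were not used.

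Cell classes are the authors'. The fibroblast compartment sums all fibroblast, smooth muscle, EMT-like and unknown mesenchymal classes, and the epithelial compartment all AT2, cycling AT2 and transitional classes without the mixed clusters. UMIs were summed per library and tested with edgeR 4.0.16 (quasi-likelihood, TMM, filterByExpr) in R 4.3.3, with Benjamini-Hochberg adjustment over all genes and a threshold of 0.05; classes needed 50 cells in every library. Levels are CPM after TMM, plain CPM for classes. The scripts were tested on simulated data. Gene coordinates are from GENCODE on GRCm38 by Ensembl ID. Alternatives were DESeq2 1.42.0, limma voom 3.58.1, other scalings and filters, left-out libraries, the replicate block, class weights, an offset for genomic span and, chosen after seeing the data, classes of 50 or more cells, leaving out cluster 32 and single fibroblast clusters.

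Named are collagen genes called in a compartment, the interaction or at least 2 classes, the 2 with the highest fibroblast level of each type, their trimer partners and the called genes of the processing list; others were named after their values were seen. The members, lists and tests were chosen with earlier results of these data known.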

Additional observations from a re-analysis of the deposited data

Results flagged for a closer look

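The knockdown effect on Col27a1 differed between the compartments by log2 0.97 ± 0.16, fibroblast minus epithelial (edgeR interaction, adjusted p = 0.00811). Its level was lower in both knockdown libraries in epithelial cells, while its fibroblast groups overlapped. The difference was called under 7 of 8 alternatives and not when free fibroblast RNA was subtracted, where it was larger, at log2 1.38, but did not pass (adjusted p = 0.0863).

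The effect on Col25a1 differed by log2 3.38 ± 0.37 (edgeR interaction, adjusted p = 0.000964) and was called under all 8 alternatives. Its epithelial counts rest on 77 UMIs in the controls and 9 in the knockdowns, of which cluster 32 held 34 and 0.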

How the results depend on the processing

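Of the 9 collagen genes called in fibroblasts, 9 were also called by DESeq2 (13 calls in all), limma voom (10), upper-quartile scaling (12) and plain totals (11), and 8 without the low-count filter (8). Leaving out 1 library gave 5 to 16 calls, 5 without knockdown library 2 and 16 without control library 1. The labels do not say whether same-numbered libraries form pairs. Their deviations from the group means correlated at 0.263 over 17481 genes, a single value that cannot decide this. The replicate block gave 20 collagen calls, or 23 with the span offset. Over all genes it gave 5820 calls, against 1860 without it. Equal class weights, in the 8 classes of 50 or more cells in every library, gave 9, of which 6 were shared with the 9 above. Those classes without reweighting gave 11, of which 8 were shared. The 9 processing genes became 3 to 14 with a library left out, 18 with the block, with or without the span offset, and 4 with equal class weights. The 7 epithelial calls became 11 without the filter, 17 with the mixed clusters kept, 2 after subtraction of free RNA and 4 to 9 with a library left out. The 2 interaction calls became 8 without the filter, 1 after subtraction and 3 to 7 with a library left out. The 53 calls within deposited classes became 81 with the block and 43 to 63 with a library left out.

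Signs turned for uncalled genes near 0 in fibroblasts. With a library left out Col5a2 ran from -0.136 to 0.0559, Col3a1 from -0.36 to 0.11, Col4a2 from -0.0416 to 0.151 and Col25a1 from -0.27 to 0.11. With the span offset, alone and with the replicate block, Col5a2 was at 0.12 and 0.12, Col4a6 at 0.0950 and 0.11, Col4a5 at 0.19 and 0.19 (adjusted p = 0.0364 with the block) and Col25a1 at 0.21 and 0.23. Col5a2 was at 0.0400 with equal class weights, and Col3a1 at 0.0292 and Col25a1 at 0.0946 in classes of 50 or more cells. In epithelial cells with the mixed clusters kept Col4a4 was at 0.0633 and Col4a3 at 0.10. The network share of UMIs, knockdown minus control, ran from -0.0131 to 0.00946 percentage points with a library left out and was 0.0166 with equal weights. The FACIT share was -0.0128 points without mitochondrial genes in the total and -0.00681 with equal weights. The causes were not tested. Depth limits 11 tested genes with under 500 UMIs in every library, among them Col17a1, Col6a6, Col8a2 and Col10a1, and the 5 untested genes.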
